A study of Mus musculus with 6 samples.

Results

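The genes of DNA replication and S phase are a set of 44 mouse genes, named by symbol, that cover origin licensing, helicase activation, the replication fork, nucleotide supply, chromatin assembly, checkpoint and repair, and the E2F and cyclin E regulators of S phase entry. Each of the 44 symbols matched 1 of the 54838 Ensembl gene IDs in the files, and all 44 were abundant enough to be among the 15998 genes tested. They were measured by bulk RNA sequencing in intestinal stem cells treated with INT-777, an agonist of the bile acid receptor TGR5 (gene Gpbar1), against the same cells given DMSO, the solvent. Both groups came from mice of the strain B6.129P2-Lgr5tm1(cre/ERT2)Cle/J, whose Lgr5-eGFP-IRES-CreERT2 allele places GFP and an inducible Cre under the stem cell gene Lgr5. Intestines of 4 mice were pooled on each of 3 days, cells with high GFP were sorted and embedded in Matrigel in medium with JAG-1 at 1 µM and CHIR99021 at 3 µM, and 4 h later INT-777 at 30 µM or DMSO was added. There was 1 library per group per day, so each group has 3 libraries and each day 1 pair. The sample labels give a treatment of 12 h and the design text gives 16 h. No age is given for the mice in these sources.

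Before S phase, the licensing factors Cdc6 and Cdt1 load the ring-shaped MCM helicase, made of Mcm2 to Mcm7, onto origins, and geminin (Gmnn) holds Cdt1 in check. The kinase partner cyclin E and the GINS complex, Cdc45 and Mcm10 then act at the start of synthesis, when the loaded helicase opens the duplex for the polymerases. Many of these genes are targets of the E2F transcription factors, and Lgr5-positive intestinal stem cells are known for cycling continuously.

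Each library held 45682340 to 47905087 read pairs assigned to genes. RNA integrity numbers were 9.2, 9.2 and 9.0 in INT-777 libraries and 9.3, 9.6 and 8.7 in DMSO libraries of days 1, 2 and 3. Gpbar1 had 4, 1 and 4 read pairs in INT-777 libraries and 4, 0 and 5 in DMSO libraries, too few to test. All 10 stem cell markers were detected, and their summed level was 1025, 1010 and 950 CPM (read pairs on a gene per 1e+06 assigned pairs, after scaling) in INT-777 libraries, against 1171, 1190 and 1125 CPM in DMSO libraries. The day 3 pair stood apart: 10 goblet cell markers, all detected, summed to 3019, 2921 and 12516 CPM in INT-777 libraries and 5689, 5595 and 28320 CPM in DMSO libraries of days 1, 2 and 3. The goblet marker sum was therefore lower in the INT-777 library on every day. Summed enteroendocrine markers, also highest on day 3, were 553, 561 and 2102 CPM in INT-777 libraries and 594, 606 and 2688 CPM in DMSO libraries. Summed Paneth cell markers were 3353, 3542 and 2249.7 CPM in INT-777 libraries and 3885, 3694 and 3429 CPM in DMSO libraries, and summed enterocyte markers 428, 436 and 406 CPM in INT-777 libraries and 386, 393 and 331 CPM in DMSO libraries. In bulk libraries, fewer cells of a type and less RNA per cell cannot be told apart.

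The S phase genes lay slightly higher with INT-777. Ccne1 alone passed the test across all genes when the fit held treatment only. Pairing by day brought the count to 21, beside 11.1% of all tested genes higher. The summed level of the 44 was 4688, 4673 and 4458 CPM in INT-777 libraries of days 1, 2 and 3, against 4294, 4332 and 3879 CPM in DMSO libraries. The sum was thus 9.2, 7.9 and 14.9% higher with INT-777 on days 1, 2 and 3, and the groups did not overlap. In the fit of treatment alone (edgeR's quasi-likelihood test, Benjamini-Hochberg adjusted p under 0.05), 1 of 44 rose and 0 fell, beside 0.688% of all tested genes higher and 0.763% lower. An unadjusted p under 0.05 was reached by 13 of the 44, beside 16.4% of all tested genes, and DESeq2 without the day called 4 higher and 0 lower, beside 2.31 and 2.68% of all tested genes. The log2 fold change was positive for 40 members and negative for 4 (39 and 5 with upper-quartile or no scaling, where Gins2 turned negative), while 50.7% of all tested genes had a positive one. Its median over the members was 0.14 and its range −0.06 to 0.41, beside a median of 0.0031 for all tested genes, and without DMSO replicate 3 the members' median was 0.069.

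The 2 libraries of a day share their pool of mice, a pairing that the fit of treatment alone ignores. Over all tested genes, edgeR's common coefficient of variation between libraries was 0.149 without the day and 0.048 with it. With day as a block in the fit, 21 of the 44 members rose and 0 fell, beside 11.1% of all tested genes higher and 10.3% lower. The 21 are Mcm2 to Mcm7, Cdt1, Mcm10, Rfc4, Rpa2, Rrm2, Tyms, Uhrf1, Hells, Cdca7, Nasp, Ung, Dtl, Rad51ap1, E2f8 and Ccne1. Within the days, 35, 36 and 41 members had a positive difference on days 1, 2 and 3, and the median log2 difference was 0.12, 0.10 and 0.20. INT-777 was above DMSO on all 3 days for 31 members, a share of 70.5%, which all tested genes reached in 26.8%. For 18 members, a share of 40.9%, every INT-777 library was above every DMSO library, as in 13.5% of all tested genes, and for 0 members was every INT-777 library lower. Both fits rest on few days: without day 2 the blocked count was 7 of 44, and without day 3 it was 20. All tested genes higher were then 4.79 and 12.1%.

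**Figure D1:**
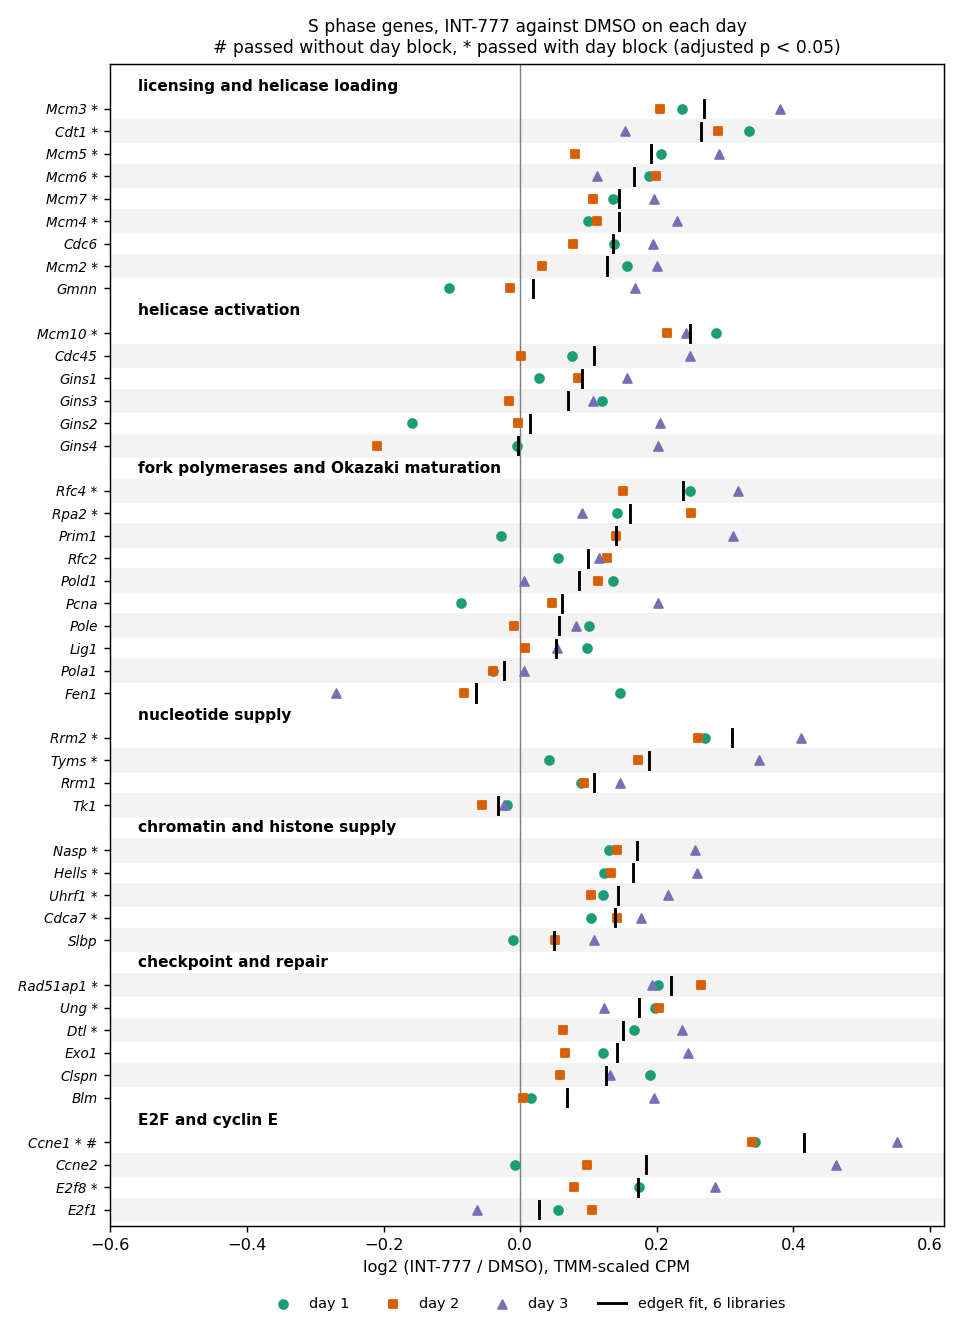
Log2 ratio of INT-777 over DMSO on each of the 3 days (coloured points) and from the fit of all 6 libraries (black bars) for the 44 S phase genes by role. Most points lie right of 0, and Ccne1 lies furthest right with a fitted value of 0.41.

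Promoter sequence gives a view of the members that does not use their levels. The 250 bases before the RefSeq start (build GRCm38.p6) were available for 35 of the 44 members and were searched on both strands for 4 spellings of the E2F site, TTTCCCGC, TTTGGCGC, TTTCGCGC and TTTGCCGC. At least 1 spelling was found for 10 of 35 members (28.6%), for 17 of 72 other replication genes (23.6%), for 1 of 21 genes of G2 and M phase (4.76%) and for 425 of 11079 tested genes (3.84%). Over all 27025 genes with a window the share was 2.16%. The windows were not matched on base composition. CCAAT was found for 62.9% of members, 90.5% of G2 and M phase genes and 40.2% of tested genes, and TTTGAA, the letters of the cell cycle homology region, for 17.1, 42.9 and 12.9%. Among the 35 members with a window, an E2F spelling stood before 7 of the 20 that rose with the day block. It stood before 3 of the 15 that did not. The windows of Mcm6, Mcm5, Uhrf1 and Pola1 are shown. They were chosen among members named by a fixed rule that hold such a match, in order of p without the day block, at most 4. Of these, 3 genes rose with the day block and Pola1 did not. Each window is given 5′ to 3′ on the gene's strand, with the E2F letters in capitals.
Mcm6: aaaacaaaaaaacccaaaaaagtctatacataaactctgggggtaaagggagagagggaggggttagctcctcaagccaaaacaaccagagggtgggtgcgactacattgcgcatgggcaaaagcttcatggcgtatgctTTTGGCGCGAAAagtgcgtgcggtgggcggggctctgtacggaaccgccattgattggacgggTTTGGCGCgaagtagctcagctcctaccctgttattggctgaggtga
Mcm5: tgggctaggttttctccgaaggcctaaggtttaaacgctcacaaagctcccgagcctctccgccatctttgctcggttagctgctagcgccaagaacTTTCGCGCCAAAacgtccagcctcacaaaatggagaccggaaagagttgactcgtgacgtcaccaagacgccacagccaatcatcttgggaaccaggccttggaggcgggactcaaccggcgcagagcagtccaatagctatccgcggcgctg
Uhrf1: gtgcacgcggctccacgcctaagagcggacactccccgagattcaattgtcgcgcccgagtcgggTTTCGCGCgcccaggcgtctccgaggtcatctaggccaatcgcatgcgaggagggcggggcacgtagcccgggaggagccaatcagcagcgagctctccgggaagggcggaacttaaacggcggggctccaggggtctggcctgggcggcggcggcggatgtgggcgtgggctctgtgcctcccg
Pola1: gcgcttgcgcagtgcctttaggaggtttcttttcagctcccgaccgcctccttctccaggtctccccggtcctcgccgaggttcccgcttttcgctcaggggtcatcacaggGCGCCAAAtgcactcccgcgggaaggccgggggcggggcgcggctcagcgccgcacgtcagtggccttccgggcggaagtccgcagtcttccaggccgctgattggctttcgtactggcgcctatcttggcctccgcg
The Mcm6 window, chr1:128359706-128359955 on the minus strand, holds 3 matches that begin 110, 106 and 47 bases before the start, the first pair overlapping on opposite strands in 1 run of capitals. The Mcm5 window, chr8:75109259-75109508 on the plus strand, holds a like overlapping pair that begins 153 and 149 bases before the start. Uhrf1 has 1 match 185 bases before the start in chr17:56304063-56304312 on the plus strand. Pola1 has 1 match 138 bases before it in chrX:93632156-93632405 on the minus strand. The windows of Ccne1, Rrm2 and Rad51ap1 hold none of these spellings, which says only that the letters are not in these 250 bases.

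Of the licensing genes, 9 of 9 had a positive log2 fold change in the fit of treatment alone, with a median of 0.15. Within day 1 and within day 2, 8 of 9 were positive, Gmnn being the exception. Without the day block 0 passed and 5 reached an unadjusted p under 0.05, beside 16.4% of all tested genes. With the block 7 rose, beside 11.1% of all tested genes. The Mcm2 to Mcm7 genes all rose with the block, and their fold changes ran from 0.13 for Mcm2 to 0.27 for Mcm3 (log2). Mcm6, a helicase subunit with the E2F letters shown above, had 256, 255 and 246 CPM in INT-777 libraries, against 225, 222 and 227 CPM in DMSO libraries. The groups did not overlap and each was tight. The log2 fold change of Mcm6 was 0.17 ± 0.05 (SE), with adjusted p = 0.151 in edgeR without the day block, 0.00737 with it and 0.0302 in DESeq2 without it. Mcm5, another subunit, had 186, 172 and 180.1 CPM in INT-777 libraries, against 161, 163 and 147 CPM in DMSO libraries. These groups did not overlap either, and the log2 fold change of Mcm5 was 0.19 ± 0.06 (SE; edgeR adjusted p = 0.181, with the day block 0.0063). Mcm3 had 200.3, 201 and 183 CPM in INT-777 libraries, against 170, 174 and 141 CPM in DMSO libraries (edgeR adjusted p = 0.200, with the day block 0.000384). In both groups its lowest library was that of day 3. Cdt1, the loader of the helicase, had 107, 104 and 87.6 CPM in INT-777 libraries, against 85.1, 85.5 and 78.7 CPM in DMSO libraries (edgeR adjusted p = 0.187, with the day block 0.000912). Gmnn, the inhibitor of Cdt1, did not share this pattern of separate groups: it had 32.4, 34.3 and 38.1 CPM in INT-777 libraries and 34.8, 34.6 and 33.9 CPM in DMSO libraries, a log2 fold change of 0.02 ± 0.07 (SE; edgeR adjusted p = 0.917).

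Among the 6 genes of helicase activation, 5 had a positive log2 fold change, and the median was 0.08. An unadjusted p under 0.05 was reached by 1, near the 16.4% of all tested genes, and 0 passed without the day block. With the block 1 rose, Mcm10, beside 11.1% of all tested genes. Mcm10, a factor needed to activate the loaded helicase, had 121, 118 and 104 CPM in INT-777 libraries, against 99.3, 102 and 87.7 CPM in DMSO libraries. Every INT-777 library was above every DMSO library, with a log2 fold change of 0.25 ± 0.08 (SE; edgeR adjusted p = 0.196, with the day block 0.000559). Cdc45, the helicase cofactor, had 45.3, 45.5 and 48.7 CPM in INT-777 libraries, against 43.0, 45.5 and 41.0 CPM in DMSO libraries. The groups overlapped, with equal rounded levels on day 2, and the log2 fold change of Cdc45 was 0.11 ± 0.06 (SE; edgeR adjusted p = 0.421, with the day block 0.192). Gins1 to Gins4, the GINS complex, had fold changes between −0.0036 for Gins4 and 0.09 for Gins1 (log2), and Gins2, at 0.01, turned to −0.0055 with upper-quartile scaling and −0.0024 without scaling. The Gins2 value is not usable as a level, since 2758 of its 4097 exon bases overlap Gse1 on the other strand. Gins4 had 29.3, 26.9 and 31.4 CPM in INT-777 libraries, against 29.4, 31.2 and 27.3 CPM in DMSO libraries. Its groups overlapped, and the direction differed between days 2 and 3.

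The 10 genes of the fork polymerases and Okazaki fragment maturation had the lowest median log2 fold change of the 7 role groups, 0.07. Of these 10, 8 were positive and 0 passed without the day block. An unadjusted p under 0.05 was reached by 2, near the 16.4% of all tested genes. With the block 2 rose, Rfc4 and Rpa2, beside 11.1% of all tested genes. Rfc4, a subunit of the clamp loader, had 25.2, 23.4 and 23.8 CPM in INT-777 libraries, against 21.2, 21.1 and 19.1 CPM in DMSO libraries. The groups were separate, with a log2 fold change of 0.24 ± 0.07 (SE; edgeR adjusted p = 0.153, with the day block 0.0125). Its exons overlap those of Eif4a2 on the other strand over 194 bases, so part of its reads is uncertain. Rpa2, a subunit of the single-strand binding protein, had 45.2, 47.9 and 45.6 CPM in INT-777 libraries, against 41.0, 40.2 and 42.8 CPM in DMSO libraries. Here too the groups were separate, with a log2 fold change of 0.16 ± 0.05 (SE; edgeR adjusted p = 0.205, with the day block 0.0382). Pcna, the sliding clamp, was the member of highest level per length, at 89.0 CPM per kb of exon. It had 197, 206 and 251 CPM in INT-777 libraries, against 209.6, 199.9 and 218 CPM in DMSO libraries. Its groups overlapped and day 1 went the other way, with a log2 fold change of 0.06 ± 0.09 (SE; edgeR adjusted p = 0.794, with the day block 0.494). Pola1, the catalytic subunit of the priming polymerase, had 56.4, 55.0 and 61.0 CPM in INT-777 libraries, against 58.0, 56.5 and 60.8 CPM in DMSO libraries. Day 3 was highest in both groups, and the log2 fold change of Pola1 was −0.02 ± 0.06 (SE; edgeR adjusted p = 0.876). Fen1, the flap endonuclease, had 4.66, 4.36 and 3.81 CPM in INT-777 libraries, against 4.21, 4.62 and 4.59 CPM in DMSO libraries, a log2 fold change of −0.06 ± 0.12 (SE; edgeR adjusted p = 0.838).

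The Fen1 value is not a usable level. Of its 2422 exon bases, 2039 overlap genes on the opposite strand, and pairs that fall on more than 1 gene were not counted in the strandless column. That column gave Fen1 178 to 220 pairs per library, while its 2 strand columns summed to 5129, 5226 and 5154 pairs in INT-777 libraries and 4727, 4801 and 4751 pairs in DMSO libraries, a sum that can hold reads of the overlapping genes too. Of the 44 members, 12 have exons that overlap a gene on the other strand. The strand sum exceeded the strandless count by over 1.5 times for 3 of them, Fen1, Gins2 and Ccne2. For all 32 members without overlap it was within 5%.

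Nucleotide supply held positive values for Rrm1, Rrm2 and Tyms and a negative one for the salvage enzyme Tk1. Of 4 genes, 3 had a positive log2 fold change, the median was 0.15, and 0 passed without the day block. An unadjusted p under 0.05 was reached by 2, beside 16.4% of all tested genes. Those 2, Rrm2 and Tyms, rose with the block, beside 11.1% of all tested genes. Rrm2, the small subunit of ribonucleotide reductase and rate-limiting for deoxynucleotides, had 202, 198 and 185 CPM in INT-777 libraries, against 167, 165 and 139 CPM in DMSO libraries. The groups were well apart. The log2 fold change of Rrm2 was 0.31 ± 0.08 (SE), with adjusted p = 0.123 in edgeR without the day block, 0.000103 with it and 0.0241 in DESeq2 without it. The large subunit, Rrm1, had 322, 323 and 299.8 CPM in INT-777 libraries, against 303, 303 and 271 CPM in DMSO libraries (log2 fold change 0.11 ± 0.06, SE; edgeR adjusted p = 0.449, with the day block 0.0597). Tyms, which makes thymidylate anew, had 55.6, 59.3 and 62.3 CPM in INT-777 libraries, against 54.0, 52.6 and 48.9 CPM in DMSO libraries. The gap was small on day 1 and wide on day 3, with a log2 fold change of 0.19 ± 0.06 (SE; edgeR adjusted p = 0.217, with the day block 0.0279). Tk1, the thymidine salvage kinase, had 56.4, 57.0 and 59.7 CPM in INT-777 libraries, against 57.1, 59.2 and 60.7 CPM in DMSO libraries. It was slightly lower with INT-777 on each day, but the groups overlapped and the log2 fold change was −0.03 ± 0.05 (SE; edgeR adjusted p = 0.798, with the day block 0.672).

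The 5 genes of chromatin and histone supply are known to carry histones and DNA methylation through replication. All 5 had a positive log2 fold change with a median of 0.14. Without the day block 0 passed or reached an unadjusted p under 0.05, beside 16.4% of all tested genes for the latter. With the block 4 rose, Uhrf1, Hells, Cdca7 and Nasp, beside 11.1% of all tested genes. Nasp, a histone chaperone, had 191, 196 and 166 CPM in INT-777 libraries, against 175, 178 and 139 CPM in DMSO libraries. The day 3 INT-777 library was below the day 1 and day 2 DMSO libraries, although INT-777 was higher within each day. The log2 fold change of Nasp was 0.17 ± 0.11 (SE; edgeR adjusted p = 0.475) and with the day block 0.18 ± 0.04 (SE; adjusted p = 0.00694). Uhrf1, which recruits the maintenance DNA methyltransferase, had 232, 229 and 204 CPM in INT-777 libraries, against 214, 213 and 175 CPM in DMSO libraries. Day 3 was its lowest in both groups, with a log2 fold change of 0.14 ± 0.09 (SE; edgeR adjusted p = 0.480, with the day block 0.0174). Hells, a chromatin remodeller that works with Cdca7, had 240.2, 244 and 202 CPM in INT-777 libraries, against 221, 223 and 169 CPM in DMSO libraries (edgeR adjusted p = 0.550, with the day block 0.0084). The day 3 libraries were its lowest in both groups.

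All 6 checkpoint and repair genes had a positive log2 fold change, with a median of 0.15. Without the day block 0 passed and 2 reached an unadjusted p under 0.05, beside 16.4% of all tested genes. With the block 3 rose, Ung, Dtl and Rad51ap1, beside 11.1% of all tested genes. Rad51ap1, a factor of homologous recombination, had 41.7, 43.6 and 41.0 CPM in INT-777 libraries, against 36.3, 36.3 and 35.8 CPM in DMSO libraries. The DMSO libraries were nearly equal and all below the INT-777 libraries. The log2 fold change of Rad51ap1 was 0.22 ± 0.05 (SE), with adjusted p = 0.0972 in edgeR without the day block, 0.00628 with it and 0.0387 in DESeq2 without it. Ung, the glycosylase that removes uracil from DNA, had 25.0, 25.4 and 25.1 CPM in INT-777 libraries, against 21.8, 22.0 and 23.1 CPM in DMSO libraries. Its groups were also separate, with a log2 fold change of 0.17 ± 0.06 (SE; edgeR adjusted p = 0.193, with the day block 0.0478).

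Ccne1, cyclin E1, which activates CDK2 at S phase entry, had the largest fold change of the 44. It had 54.1, 56.2 and 63.7 CPM in INT-777 libraries, against 42.6, 44.5 and 43.5 CPM in DMSO libraries, or 58.0 ± 5.07 CPM with INT-777 and 43.5 ± 0.936 CPM with DMSO (SD, n = 3 each). The lowest INT-777 library was well above the highest DMSO library, and the log2 difference was 0.34, 0.34 and 0.55 on days 1, 2 and 3. Ccne1 rose by 33.3% with INT-777, a log2 fold change of 0.41 ± 0.07 (SE), with adjusted p = 0.0399 in edgeR, 7.34e-05 with the day block and 0.000121 in DESeq2. The unblocked edgeR call did not hold without any 1 of 5 of the libraries: its adjusted p was 0.119, 0.189, 0.181, 0.166 and 0.0573 without INT-777 replicate 1, INT-777 replicate 2, DMSO replicate 1, DMSO replicate 2 and DMSO replicate 3, and 0.0458 without INT-777 replicate 3. Ccne1 lies on chromosome 7 at 38097984 to 38107534 (GRCm38).

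The other cyclin E gene, Ccne2, had 22.8, 23.8 and 26.8 CPM in INT-777 libraries, against 22.9, 22.2 and 19.4 CPM in DMSO libraries. Its log2 difference was −0.01, 0.10 and 0.46 on days 1, 2 and 3, so the gap lay mostly in the day 3 pair. The fitted log2 fold change of Ccne2 was 0.18 ± 0.09 (SE; edgeR adjusted p = 0.358, with the day block 0.125), and 609 of its exon bases overlap Ints8 on the other strand. E2f8, a repressor among the E2F factors, rose with the day block (log2 fold change 0.17, adjusted p = 0.0103, against 0.497 in edgeR without it). E2f1, an activator of S phase genes, had 39.4, 41.3 and 43.2 CPM in INT-777 libraries, against 37.9, 38.4 and 45.2 CPM in DMSO libraries. Its groups overlapped, with a log2 fold change of 0.03 ± 0.08 (SE; edgeR adjusted p = 0.894).

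**Figure D2:**
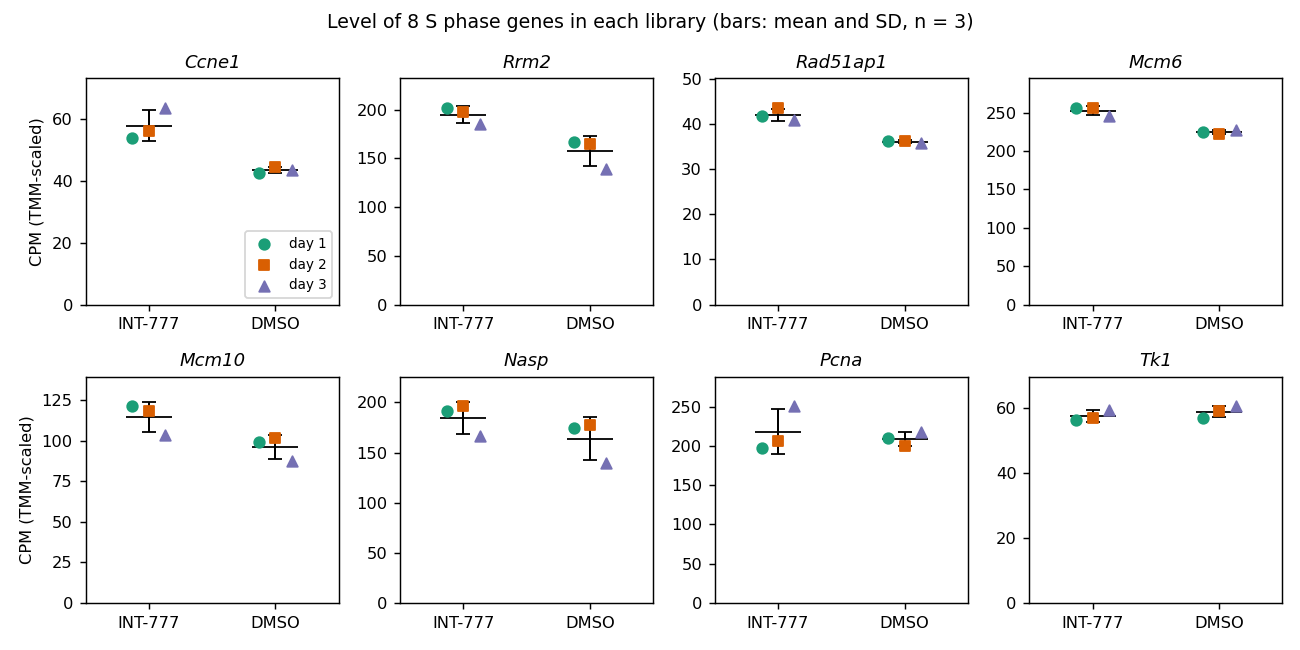
CPM of 8 S phase genes in each library, INT-777 left and DMSO right, with points by day and bars for the mean and SD (n = 3). The groups are separate for Ccne1, Rrm2, Rad51ap1, Mcm6 and Mcm10, and overlap for Nasp, Pcna and Tk1.

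The members also varied between days. In a fit of treatment and day, 13 of the 44 differed between days (edgeR adjusted p under 0.05), beside 20.5% of all tested genes, and 7 differed without DMSO replicate 2. Of the 13, 12 were lower on day 3, a share of 27.3% of the members beside 8.61% of all tested genes, and Pcna was higher, beside 11.9%. The 12 are Mcm2, Mcm3, Cdt1, Mcm10, Pole, Rrm2, Uhrf1, Hells, Cdca7, Nasp, Dtl and E2f8, and 11 of them also rose with the day block, Pole being the exception. The differences reached −0.32 for Hells and −0.28 for Nasp, both day 3 minus the mean of days 1 and 2 (log2), while Pcna had 0.20. Over all 44 the median was −0.06. All 25 genes of G2 and M phase had negative differences, with a median of −0.27, and 19 of them differed between days. The enterocyte marker sums, higher with INT-777 and lowest on day 3, moved the same way as most members, although 4 of the 6 enterocyte markers tested had a negative log2 fold change. The goblet and enteroendocrine marker sums were highest on day 3 in both groups and lower with INT-777, in both respects opposite to most members. Stem cell and Paneth cell marker sums were lowest on day 3 in both groups, like most members, but lower with INT-777. The part of any of these cell types in these results was not tested. With RNA integrity as a covariate in place of the day, 14 of the 44 members rose and 0 fell, beside 7.21% of all tested genes higher and 5.52% lower. RNA integrity was lowest on day 3 in both groups, so this covariate and the day 3 difference cannot be fully told apart. Lgr5 had 67.1, 64.6 and 53.6 CPM in INT-777 libraries, against 72.3, 74.5 and 62.2 CPM in DMSO libraries (edgeR adjusted p = 0.447, with the day block 0.0133). Within days 1 and 2 alone, without the day 3 pair, 23 of the 44 members rose and 0 fell in the fit without block, beside 13.9% of all tested genes higher and 12.9% lower.

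**Figure D3:**
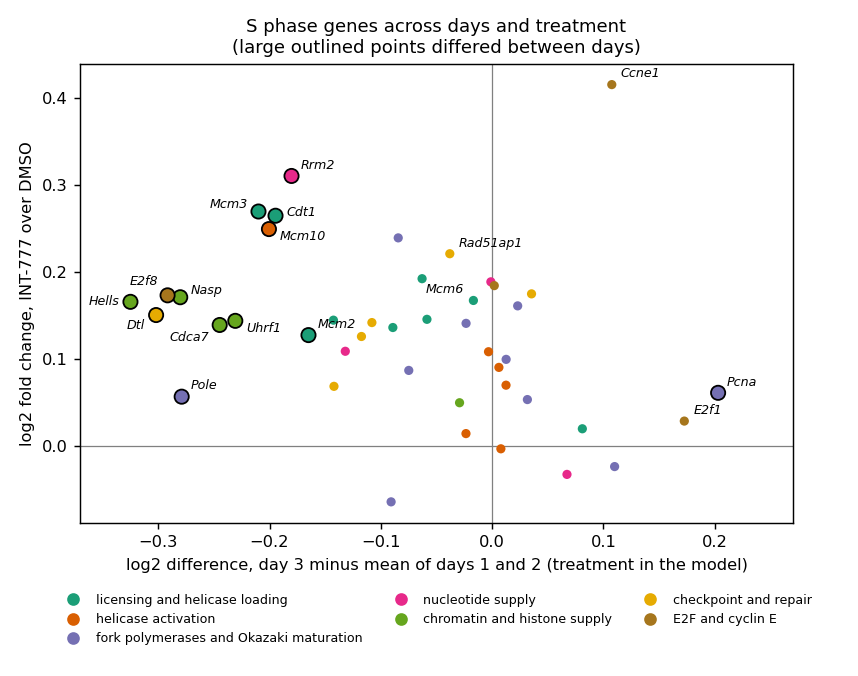
Log2 difference of day 3 from the mean of days 1 and 2 (x axis) against log2 fold change of INT-777 over DMSO (y axis) for the 44 S phase genes, coloured by role. The 13 large outlined points differed between days, 12 of them left of 0 and Pcna at 0.20.

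A further list of 89 genes of replication, all tested, gave the surroundings of the members. Of these, 79 had a positive log2 fold change, with a median of 0.09, and 0 passed edgeR without the day block. An unadjusted p under 0.05 was reached by 19, beside 16.4% of all tested genes. DESeq2 without the day called 1 higher, beside 2.31% of all tested genes. With the day block 22 rose, a share of 24.7% beside 47.7% of the members and 11.1% of all tested genes. With it 2 fell, beside 10.3% of all tested genes. E2f2, an activator of S phase genes, had 94.6, 92.6 and 85.3 CPM in INT-777 libraries, against 78.4, 78.5 and 77.0 CPM in DMSO libraries. The groups did not overlap, with a log2 fold change of 0.22 ± 0.05 (SE; edgeR adjusted p = 0.111, with the day block 0.0023). Wee1, the kinase that restrains CDK activity, and Samhd1, which breaks down deoxynucleotides, fell with the day block. The log2 fold change was −0.14 ± 0.08 for Wee1 (SE; edgeR adjusted p = 0.429, with the day block 0.0448) and −0.14 ± 0.11 for Samhd1 (SE; edgeR adjusted p = 0.566, with the day block 0.0302). Rb1, the restraint on E2F, had a log2 fold change of −0.08 ± 0.05 (SE; edgeR adjusted p = 0.4995, with the day block 0.299). Samhd1 was named after its values were seen.

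The G2 and M phase genes, a list of 25, had a positive log2 fold change in 22 cases and a median of 0.08. With edgeR 0 passed without the day block and 1 reached an unadjusted p under 0.05, beside 16.4% of all tested genes. With the block 4 rose, Ccnb1, Cdc20, Kif23 and Ccnf, a share of 16.0% beside 11.1% of all tested genes, and these were named after their values were seen. Mki67, the proliferation marker Ki-67, had 969, 936 and 762 CPM in INT-777 libraries, against 999, 997 and 819.6 CPM in DMSO libraries. It was slightly lower with INT-777 on each day, with a log2 fold change of −0.08 ± 0.11 (SE), the lowest of the 25.

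**Figure D4:**
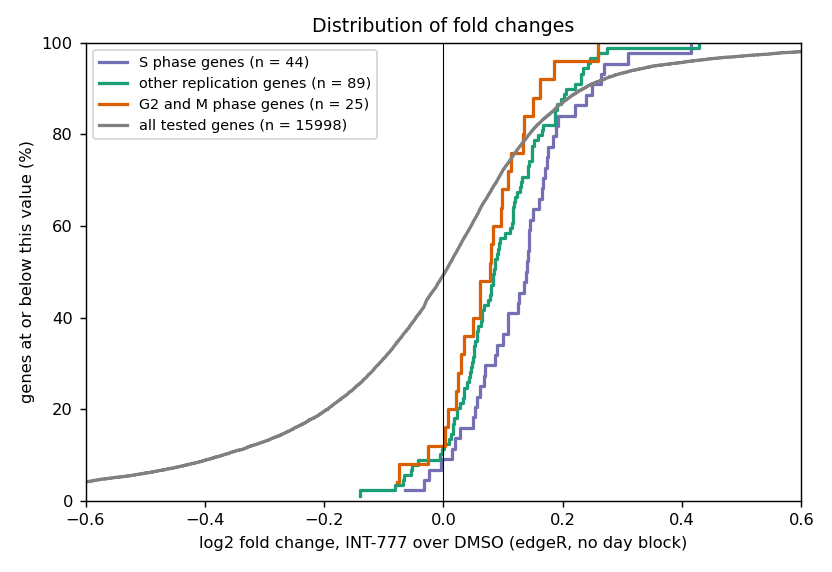
Cumulative share of genes (percent) against log2 fold change of INT-777 over DMSO for the 44 S phase genes, 89 other replication genes, 25 G2 and M phase genes and all 15998 tested genes. The curve of the S phase genes is shifted to the right, with a median of 0.14 against 0.0031 for all tested genes.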

How the data were processed

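RNA of 6 libraries was sequenced as paired reads of 100 nt on a BGISEQ-500, per the labels' protocols. The tools named are FastQC, STAR 2.73a and edgeR 3.24.3 and the builds GRCm38 and mm10, per the submitters' processing notes, without the annotation's version. Counts of read pairs per gene were deposited without normalisation, and the column without strand was used, since the first strand column held 50.1 to 50.6% of the pairs. Pairs not assigned to a gene, 24.4 to 25.5%, stayed out of library sizes and tests. Without strand, reads from a gene and an overlapping gene on the other strand cannot be told apart.

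Symbols, coordinates and exon lengths came from GENCODE M21, which matched 54809 of 54838 IDs. Counts were filtered with filterByExpr and scaled with TMM, and the edgeR 4.0.16 quasi-likelihood test (two-sided, robust, treatment only, R 4.3.3) was run on all tested genes, with Benjamini-Hochberg adjusted p under 0.05. The SE of a log2 fold change is its size divided by the root of F, and CPM is scaled by the assigned pairs and the TMM factor. Differences within a day use log2 CPM with a prior count of 0.5. The labels say that a replicate number is a shared day, which makes the libraries of a day a pair. Deviations from the group means correlated within each day (r = 0.30, 0.34 and 0.60 over genes) and as much between days 1 and 2 (0.30 and 0.33). Between day 3 and the other days r was −0.40 to −0.45. The deviations of a group cancel out for each gene, so these negative values follow from the positive ones. The correlations cannot separate pairing within each day from a shift of day 3. For genes whose adjusted p is printed, the value with the day block is given wherever it changes a call. Other changed calls are given by name or by count. The alternatives were DESeq2 1.42.0, limma 3.58.1 (voom), other scalings and filters, a strand column, RNA integrity as a covariate and leaving out libraries or days. Scripts were tested on simulated data. Figures used matplotlib 3.10.9 in Python 3.11.15.

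The 44 members, the role groups, the further lists and the tests were chosen with earlier results of these data known. Values in every library are given for the 2 members of smallest p in each role group, those with a negative log2 fold change, and the members of highest and lowest level per length (Pcna and Fen1 by exon length and also by the length of 1 principal transcript, a choice added after seeing the data). Of the further replication genes, the 2 of smallest p in each direction were chosen to be named, of which 1 is not reported here. Mcm3, Cdt1, Gmnn, Rrm1, Hells and E2f1 were given values after they were seen.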

Additional observations from a re-analysis of the deposited data

How the results depend on the processing

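Counts of S phase genes that rose depended on how day entered the fit. Against 1 in edgeR without the day block, the replicate block gave 21. With the block, RLE factors gave 19, no scaling 17, DESeq2 13, limma-voom 21 and an adjusted p under 0.01 gave 10. The share of all tested genes higher was 0.688% without the block and 11.1% with it. With RLE, no scaling, DESeq2, limma-voom and the stricter threshold, the blocked share was 10, 9.08, 6.95, 10.7 and 5.96%. All 13, 21, 19 and 17 of the calls with DESeq2, limma-voom, RLE and no scaling are among the 21. Without the block, DESeq2 gave 4, no low-count filter 2, RNA integrity as a covariate 14, an adjusted p under 0.1 gave 2 and under 0.01 gave 0, limma-voom 0 (13 at an unadjusted p under 0.05) and the strand column 0 (14 unadjusted). In the same order, 2.31, 0.64, 7.21, 1.46, 0.113, 0.556 and 0.506% of all tested genes were higher. An unadjusted p under 0.05 was reached by 2621 of 15998 tested genes with limma-voom and 2539 of 15995 with the strand column. RLE, upper-quartile and no scaling and the stricter filter each kept Ccne1 as the 1 call. All tested genes were higher in 0.575, 0.556, 0.556 and 0.766% of cases there. Leaving out libraries or days gave 0 to 23 calls. Without the block the count was 0 without INT-777 replicate 1, INT-777 replicate 2, any single DMSO library, day 1 or day 2. In those 7 fits 2 to 11 members had an unadjusted p under 0.05, beside 872 to 2331 of all tested genes. The count was 2 without INT-777 replicate 3, and 23 without day 3. Of all tested genes, 0.0121 and 0.0122% were higher without INT-777 replicates 1 and 2. The share was 0.0244, 0.0427 and 0.647% without DMSO replicates 1, 2 and 3. It was 0 and 0.0123% without days 1 and 2, 0.515% without INT-777 replicate 3 and 13.9% without day 3. With the block the count was 19, 7 and 20 without days 1, 2 and 3, beside 10.4, 4.79 and 12.1% of all tested genes higher. Calls of lower members were 0 in all these fits. The median log2 fold change ran from 0.069 (without DMSO replicate 3) to 0.16 over the left-out libraries and days. The 13 members that differed between days became 7 without DMSO replicate 2, and 7 to 17 over the left-out libraries. Why these counts moved was not tested.

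Ccne1 passed in 17 of 26 alternatives, with a log2 fold change of 0.33 to 0.46 and adjusted p of 9.59e-10 to 0.561; beside the left-out libraries and days it missed with limma-voom (0.0521) and the strand column (0.0567). Of the 44, 35 never changed sign. Gins2 turned negative with upper-quartile factors (−0.0055), no scaling (−0.0024, with the day block −0.0020), the stricter filter (−0.0013) and the strand column (−0.059). Fen1 turned positive with the strand column (0.10) and Gins4 with RNA integrity as a covariate (0.0086). Over the left-out libraries and days, the log2 fold change ran from −0.047 to 0.13 for Pole, −0.0861 to 0.10 for Gins2, −0.11 to 0.0851 for Gins4, −0.077 to 0.00054 for Pola1, −0.0653 to 0.080 for Gmnn, −0.059 to 0.13 for Pcna, −0.17 to 0.0246 for Fen1, −0.022 to 0.10 for E2f1 and −0.018 to 0.10 for Blm. With the day block as well, the sign changed for Gins4 (0.0854) and E2f1 (−0.018) without day 2, and for Gmnn (−0.0657), Gins2 (−0.0867), Pcna (−0.027) and Fen1 (0.0248) without day 3. Over the scalings without the block, the median log2 fold change of all tested genes ran from −0.016 (upper-quartile) to 0.0031 (TMM), within 0.1 in size. The lowest count in a library was 178 for Fen1 and 610 among the other members. Counts of members that overlap a gene on the other strand, such as Fen1 and Gins2, lack the pairs that fall on both genes.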

Other observations

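Regulators upstream of S phase were listed as 5 D cyclins and their kinases and 7 CDK inhibitors, of which 6 were tested. All 5 of the first list had a positive log2 fold change with INT-777, with a median of 0.21. Without the day block 0 passed edgeR and 2 reached an unadjusted p under 0.05, beside 16.4% of all tested genes. With the day block 3 rose, Ccnd1, Ccnd2 and Cdk6, beside 11.1% of all tested genes. Ccnd2, a cyclin that starts the G1 kinases, had 800.1, 762 and 758 CPM in INT-777 libraries, against 593.5, 592 and 679.5 CPM in DMSO libraries, with the day 3 DMSO library the highest of its group. The groups did not overlap, with a log2 fold change of 0.32 ± 0.07 (SE; edgeR adjusted p = 0.0941, with the day block 0.000399). Ccnd1, another D cyclin, had a log2 fold change of 0.40 ± 0.15 (SE; edgeR adjusted p = 0.260, with the day block 1.42e-05). Of the 6 inhibitors tested, 3 had a positive and 3 a negative log2 fold change, and 0 passed edgeR without the day block. An unadjusted p under 0.05 was reached by 2, beside 16.4% of all tested genes. With the block Cdkn1b, Cdkn2b and Cdkn2d fell, beside 10.3% of all tested genes. The positive values, without the block, were 0.16 for Cdkn1c, 0.04 for Cdkn2c and 0.0012 for Cdkn1a. Cdkn1b, the inhibitor p27 of cyclin E and CDK2, had 95.3, 98.4 and 97.7 CPM in INT-777 libraries, against 107, 105 and 111 CPM in DMSO libraries. All INT-777 libraries were below the DMSO libraries, with a log2 fold change of −0.15 ± 0.05 (SE; edgeR adjusted p = 0.174, with the day block 0.0169). These genes were named after their values were seen.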
